A study of Mus musculus with 6 samples.

Results

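The 8 genes described here belong to families of chloride transporters and channels, and were measured in the dorsal root ganglion. This is the nodule on each spinal nerve that holds the cell bodies of sensory neurons. The genes were chosen by symbol, and all 8 were among the 38926 gene symbols counted in every library. They are the cotransporters Slc12a2, Slc12a5 and Slc12a7, the anoctamins Ano1 and Ano3, the CLC family exchangers Clcn3 and Clcn6, and Lrrc8a, a subunit of the volume-regulated anion channel. Stranded total RNA of whole lumbar ganglia (L3, L4 and L5) was sequenced from wild-type male C57BL/6 mice aged 6-8 weeks. A burn injury preceded 3 of the libraries by 3 days, and the other 3 were controls. The labels do not say what the controls received, nor whether each library came from a separate animal or a pool, so the p-values reflect variation among these libraries only, part of which may be technical. Burn library 3 is titled as ipsilateral and carries no number in its title, and the side of the other libraries is not given.

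In most adult neurons of the central nervous system, potassium-chloride cotransporters keep internal chloride low, so that the transmitters GABA and glycine inhibit. Primary sensory neurons are known for the opposite state. They accumulate chloride through the sodium-potassium-chloride cotransporter encoded by Slc12a2, so that opening a chloride channel depolarises them. Channels of the anoctamin and LRRC8 families let chloride out after calcium entry or cell swelling, and CLC exchangers work mainly in endosomes and vesicles.

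Each library held between 17273908 and 81968142 reads assigned to genes. Burn 3 and control 3 were the deeper pair, above a gap of 1.94-fold in these totals, and they also held the highest shares of mitochondrial transcripts, 5.44% and 4.41%, against 1.71% to 2.70% in the others. Transcripts of 8 neuronal markers summed to between 7937 and 9758 CPM, the read count of a gene scaled to library size, in burn ganglia and between 8530 and 11120 CPM in control ganglia. The labels call the samples both neurons and whole ganglia. Every one of the markers of satellite glia and Schwann cells had reads in every library, with sums of 2261 to 2794 and 2812 to 5402 CPM in burn ganglia and 2638 to 3182 and 3555 to 6448 CPM in control ganglia. In such mixed tissue, fewer cells of a type and less RNA per cell cannot be told apart.

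Of the 8 genes, 0 passed an adjusted p under 0.05 between burn and control ganglia in edgeR's quasi-likelihood test, where 0.0228% of the 17534 genes tested passed. DESeq2 and limma-voom also called 0 of the 8, with backgrounds of 0.104% and 0.0171%. At an unadjusted p under 0.05 there was 1 gene, Slc12a5, which was higher, against 2.96% of all genes in either direction (2.04% higher and 0.924% lower). The median log2 fold change of the 8 genes was 0.05, with 6 positive and 2 negative signs, and the median over all genes tested was 0.0080. For none of the 8 were the groups free of overlap, while 7.24% of all genes had groups that did not overlap.

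**Figure D1:**
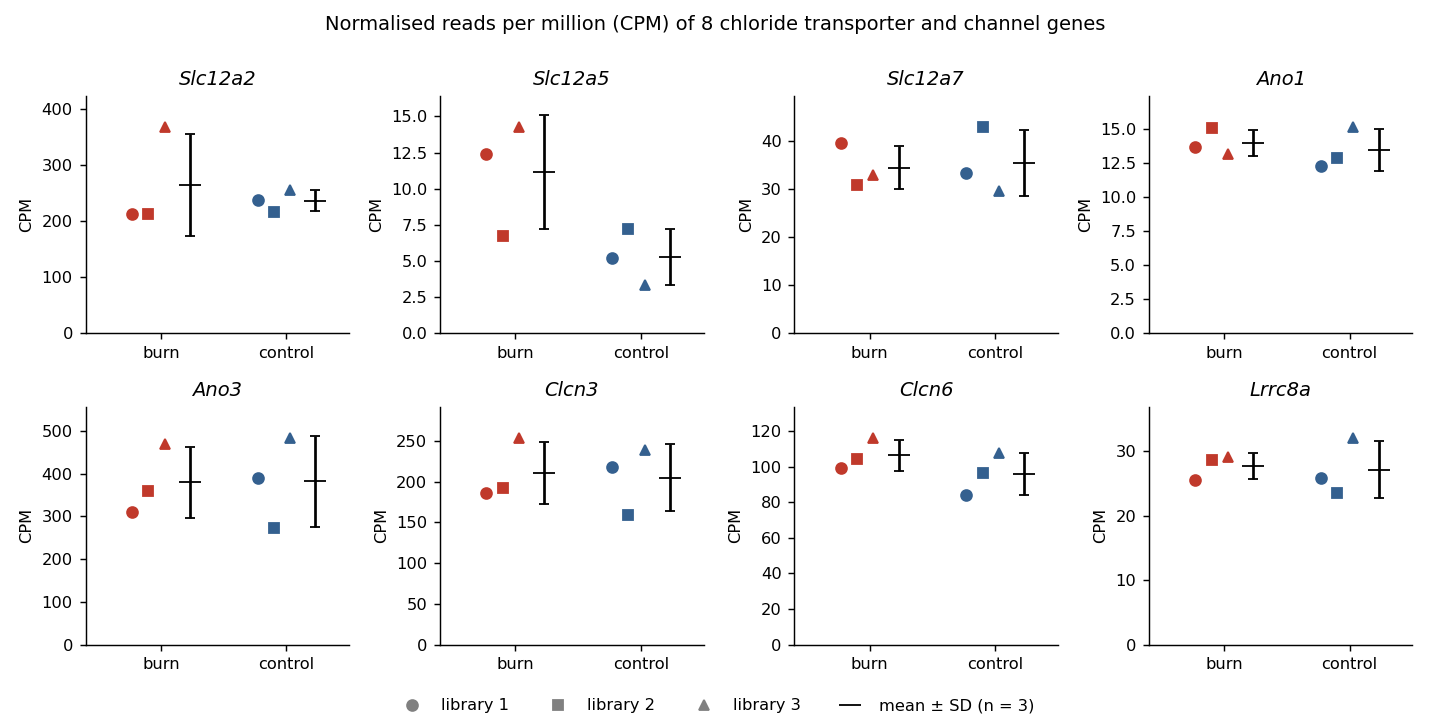
Normalised read counts (CPM, linear axes from 0) of the 8 genes in each library, with burn left of control; symbols mark libraries 1, 2 and 3, and bars show mean ± SD (n = 3). The groups overlap in every panel, and Slc12a5 shows the widest separation, with burn libraries 1 and 3 at 12.4 and 14.3 CPM above all controls.

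To set genes of different length side by side, levels were divided by the kilobases of merged exons. These cover all annotated transcripts of a gene and may exceed the length of the transcripts present. The effect of this on the order of levels and on the family shares was not tested. Ano3 stood highest at 52.6 ± 11.5 CPM per kilobase in burn ganglia and 52.9 ± 14.7 in control ganglia (SD, n = 3 each). Below it came Slc12a2 (24.2 ± 8.26 in burn, 21.6 ± 1.74 in control), Clcn6 (18.0 ± 1.47 and 16.2 ± 1.998), Clcn3 (12.3 ± 2.21 and 12.01 ± 2.42) and Lrrc8a (6.43 ± 0.458 and 6.30 ± 1.03). Slc12a7 (2.72 ± 0.356 and 2.80 ± 0.544), Ano1 (2.24 ± 0.157 and 2.16 ± 0.245) and Slc12a5 (1.498 ± 0.527 and 0.707 ± 0.263) stood lowest. This order was found in all 3 burn libraries and in control 1 and 2, while in control 3 Ano1 stood just above Slc12a7. The neighbours whose ranges overlapped were Slc12a2 and Clcn6 among burn libraries and Slc12a7 and Ano1 among control libraries. By CPM alone Clcn3, with 17071 bases of merged exons, stood above Clcn6, with 5933, in every library.

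Slc12a2 encodes NKCC1, the cotransporter that loads chloride into sensory neurons. It had 213, 212 and 369 CPM in burn libraries 1, 2 and 3, against 238, 217 and 255 CPM in control libraries 1, 2 and 3. Burn 3 stood above every other library, and the other burn libraries stood below every control. The log2 fold change was 0.16 (SE 0.23, 95% interval -0.36 to 0.69, edgeR adjusted p 0.9998). On the log2 scale burn 3 minus control 3 was 0.53, and the difference among the 4 shallower libraries was -0.09. The fitted log2 fold change was -0.14 without burn 3, 0.23 without control 3 and 0.11 with a term for depth. Burn values spread with a coefficient of variation of 34.1%, against 8.04% in controls.

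Slc12a5 encodes KCC2, the potassium-chloride cotransporter that lowers chloride in neurons of the brain and spinal cord. It had 12.4, 6.76 and 14.3 CPM in burn libraries 1, 2 and 3, from 281, 204 and 940 reads, against 5.24, 7.23 and 3.32 CPM in control libraries 1, 2 and 3, from 192, 130 and 264 reads. Burn 1 and burn 3 lay above all controls, and burn 2 lay below control 2. The mean was 11.2 ± 3.93 CPM in burn ganglia and 5.27 ± 1.96 CPM in control ganglia (SD, n = 3 each), and the fold fitted by edgeR was 2.16. The log2 fold change of 1.11 (SE 0.36, 95% interval 0.27 to 1.95) had an unadjusted p of 0.0161, and it was not called (edgeR adjusted p 0.9998). It was 143rd of the 17534 genes by p. On the log2 scale burn 3 exceeded control 3 by 1.96, and the 4 shallower libraries gave a difference of 0.54.

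The summed level of transcripts known from spinal cord cells was highest and lowest in the same libraries as Slc12a5, though 0 of 10 passed (edgeR adjusted p 0.9998 for each). All 10 markers on the spinal cord list, which covers inhibitory neurons, oligodendrocytes and astrocytes (Gad1, Gad2, Slc32a1, Slc6a5, Olig1, Olig2, Mog, Mobp, Opalin and Aqp4), had positive log2 fold changes, with a median of 1.52, where 52.1% of all genes tested were positive, and 0 of the 10 was at 0 reads in any library. Their summed level was 135, 86.2 and 177 CPM in burn libraries 1, 2 and 3, against 84.3, 80.9 and 44.8 CPM in control libraries 1, 2 and 3. For each 100 CPM of these markers there were 9.18, 7.84 and 8.09 CPM of Slc12a5 in burn libraries 1, 2 and 3, against 6.22, 8.94 and 7.41 in control libraries 1, 2 and 3, so this quotient overlapped between the groups and its values lay closer together than those of Slc12a5 itself. Mobp and Aqp4, which have the lowest log2 fold changes of the list (0.95 and 0.57), made up 79.5% to 84.4% of the summed level in burn libraries and 87.0% to 89.3% in control libraries, so the quotient rests mainly on them. With the mean level of the 10 markers as a covariate, the log2 fold change of Slc12a5 was -0.20 (edgeR unadjusted p 0.562, adjusted p 1). All burn libraries stood above all controls in the summed level, so the burn and the amount of spinal cord transcripts cannot be told apart in these libraries.

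**Figure D2:**
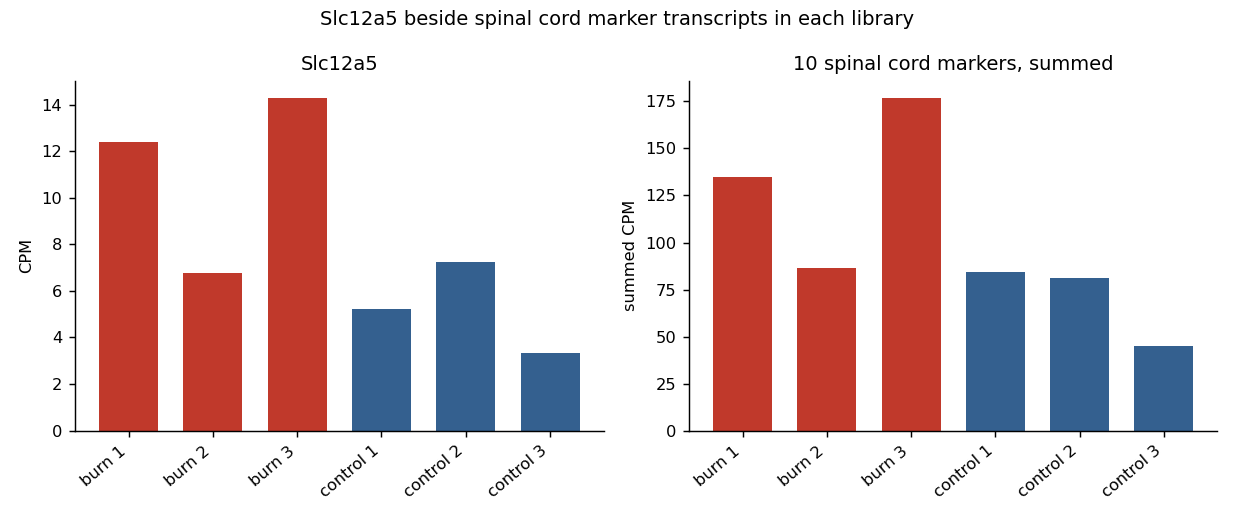
Slc12a5 (left, CPM) and the summed level of 10 spinal cord markers (right, summed CPM) in each library, with red bars for burn and blue bars for control. In both panels burn 3 is highest, at 14.3 and 177 CPM, burn 1 follows, and control 3 is lowest, at 3.32 and 44.8 CPM.

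The profile of Slc12a5 was also set beside those of 15529 other genes, by the root mean square difference of centred log2 CPM over the 6 libraries. The nearest were Gm12186 (0.162), Hapln2 (0.162) and Mobp (0.18), against a median of 0.736 over all these genes. Hapln2 encodes a hyaluronan-binding link protein of nodes of Ranvier in the central nervous system, and Mobp, itself on the spinal cord list, a protein of oligodendrocyte myelin. The match was made over all 6 libraries, so log2 fold changes near that of Slc12a5 follow from the choice of these genes. They were 1.23 for Hapln2, 0.95 for Mobp and 0.996 for Gm12186, and none passed (edgeR adjusted p 0.9998 for each).

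In the annotation Slc12a5 lies on chromosome 2 at 164960802 to 164999731 (GRCm38, plus strand) and has transcripts that begin at separate first exons, known to give the KCC2a and KCC2b forms of the protein. Reads were counted per gene, so the files do not show which start was used in either group. The bases upstream of both starts are shown because Slc12a5 was the member that differed most. Whether these bases regulate Slc12a5 in these ganglia was not tested. They come from RefSeq promoter windows of GRCm38.p6, plus strand, 5′ to 3′, and end just before the first annotated transcript start in each window, at chr2:164960596-164960801 and chr2:164967738-164967982. Capitals mark the E-box CACGTG, the same on both strands.
Slc12a5, upstream start: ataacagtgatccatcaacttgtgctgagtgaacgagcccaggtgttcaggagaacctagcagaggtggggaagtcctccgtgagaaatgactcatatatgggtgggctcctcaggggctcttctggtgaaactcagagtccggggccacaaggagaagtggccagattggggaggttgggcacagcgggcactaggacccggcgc
Slc12a5, downstream start: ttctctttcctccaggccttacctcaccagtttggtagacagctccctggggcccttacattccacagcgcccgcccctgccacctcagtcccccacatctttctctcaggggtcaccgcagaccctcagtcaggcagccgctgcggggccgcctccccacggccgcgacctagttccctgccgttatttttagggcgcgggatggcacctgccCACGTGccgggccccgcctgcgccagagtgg
The E-box, a motif of USF and related factors, occurs once in the window of the downstream start and in 7.15% of 32851 promoter windows of the same 300 bases. It is not particular to Slc12a5 among the members. Windows of Slc12a7, Ano3, Clcn6 and Lrrc8a also held it, those of Ano1 and Clcn3 did not, and no window of Slc12a2 was used. A motif of EGR factors, GCGNGGGCG on either strand, occurred 0 times in both windows and in 5.55% of all windows. The box GGGCGG, on either strand, occurred 1 time in each window of 300 bases and in 35.7% of all windows. In the window of the upstream start it lies beyond the printed bases. These matches describe letters in the sequence and say nothing of binding.

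The remaining potassium-chloride cotransporter of the set, Slc12a7, encodes KCC4, which extrudes chloride in many tissues. It had 39.6, 31.0 and 32.9 CPM in burn libraries 1, 2 and 3, against 33.5, 43.1 and 29.7 CPM in control libraries 1, 2 and 3. The ranges overlapped almost entirely, and the log2 fold change was -0.04 (SE 0.17, 95% interval -0.42 to 0.35). Within 8 genes of the cotransporter family, Slc12a2 made up 56.8 ± 7.91% of the summed level per kilobase in burn ganglia and 55.6 ± 5.10% in control ganglia (SD, n = 3 each). Slc12a7 made up 6.65 ± 1.49% of it in burn ganglia and 7.16 ± 1.30% in control ganglia, and Slc12a5 made up 3.51 ± 0.803% and 1.81 ± 0.657%. Slc12a4 (KCC1), at 25.1 ± 4.73% in burn ganglia and 26.7 ± 3.68% in control ganglia, stood above both in every library.

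The loading and extruding cotransporters Slc12a2 and Slc12a5 were also compared within each library, which needs no scaling between libraries. There were 17.1, 31.4 and 25.8 reads of Slc12a2 for each read of Slc12a5 in burn libraries 1, 2 and 3, against 45.3, 30.0 and 76.8 in control libraries 1, 2 and 3. Control 2 fell within the burn range. The log2 ratio averaged 4.59 ± 0.45 in burn ganglia and 5.56 ± 0.68 in control ganglia (SD, n = 3 each), a difference of -0.97 that did not pass a two-sided exact permutation test (p = 0.2, where 0.1 is the smallest that 3 against 3 can give). The spinal cord markers given above had the same sign as Slc12a5, its denominator, and their part in the ratio was not tested.

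Ano1 encodes a calcium-activated chloride channel of small sensory neurons that is also opened by noxious heat. It had 13.7, 15.1 and 13.2 CPM in burn libraries 1, 2 and 3, against 12.3, 12.8 and 15.2 CPM in control libraries 1, 2 and 3. Burn and control values were interleaved. The log2 fold change was 0.05 (SE 0.14, 95% interval -0.27 to 0.37), which in linear terms spans 0.832-fold to 1.29-fold.

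Ano3, a related anoctamin that in rat sensory neurons modulates a sodium-activated potassium channel, had 310, 359 and 471 CPM in burn libraries 1, 2 and 3, against 390, 272 and 484 CPM in control libraries 1, 2 and 3. The groups covered nearly the same range, with the deeper library highest in each. The log2 fold change was -0.01 (SE 0.24, 95% interval -0.57 to 0.55). Ano3 made up 55.8 ± 5.58% of the summed level per kilobase of 10 anoctamins in burn ganglia and 56.7 ± 6.05% in control ganglia (SD, n = 3 each), and Ano1 made up 2.42 ± 0.355% and 2.37 ± 0.331%. Ano10 and Ano6 came after Ano3, at 12.2 ± 1.25% and 12.1 ± 2.57% in burn ganglia and 12.01 ± 2.01% and 11.2 ± 2.77% in control ganglia.

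**Figure D3:**
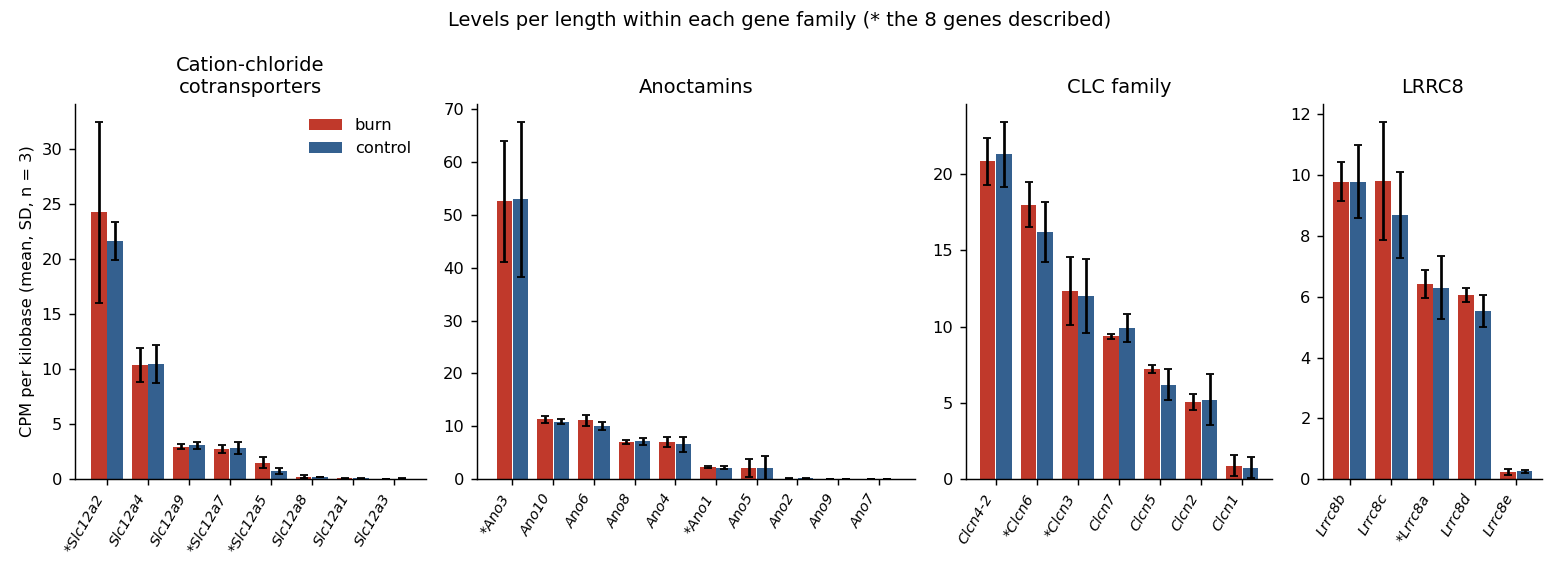
Levels per kilobase of merged exons (mean and SD, n = 3) for each family, with burn (red) left of control (blue) and asterisks on the 8 genes described. Ano3 and Slc12a2 stand above the rest of their families in both groups, while Slc12a5 reaches 1.498 CPM per kilobase in burn ganglia and 0.707 in control ganglia.

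Clcn3 encodes a chloride-proton exchanger of endosomes and synaptic vesicles. It had 186, 192 and 254 CPM in burn libraries 1, 2 and 3, against 218, 159 and 239 CPM in control libraries 1, 2 and 3. Again the deeper library was highest in each group, and the log2 fold change was 0.04 (SE 0.19, 95% interval -0.40 to 0.48).

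Clcn6 encodes a late endosomal exchanger of neurons, whose loss in mice causes lysosomal storage and reduced pain sensitivity. It had 99.5, 104 and 116 CPM in burn libraries 1, 2 and 3, against 84.2, 96.3 and 108 CPM in control libraries 1, 2 and 3. Control 1 and control 2 lay below all burn libraries and control 3 lay between burn 2 and burn 3. The log2 fold change of 0.15 (SE 0.13, 95% interval -0.14 to 0.45) did not pass (edgeR unadjusted p 0.271, adjusted p 0.9998). Among 7 CLC genes Clcn6 took 24.4 ± 0.527% of the summed level per kilobase in burn ganglia and 22.6 ± 2.01% in control ganglia, Clcn3 took 16.7 ± 1.98% and 16.7 ± 2.69%, and Clcn4, listed as Clcn4-2, took the largest share at 28.2 ± 0.634% and 29.7 ± 2.11% (SD, n = 3 each).

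Lrrc8a encodes the subunit that every volume-regulated anion channel needs. It had 25.4, 28.6 and 29.1 CPM in burn libraries 1, 2 and 3, against 25.9, 23.4 and 32.1 CPM in control libraries 1, 2 and 3. The control values enclosed the burn values, and the log2 fold change was 0.03 (SE 0.14, 95% interval -0.30 to 0.36). Without correction for exon bases it shares with another annotated gene, Lrrc8a accounted for 19.9 ± 1.09% of the summed level per kilobase of 5 LRRC8 subunits in burn ganglia and 20.6 ± 1.96% in control ganglia. The partners Lrrc8b, Lrrc8c and Lrrc8d took 30.3%, 30.2% and 18.9% in burn ganglia and 32.1%, 28.3% and 18.2% in control ganglia, while Lrrc8e took 0.706% and 0.859%.

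Depth went with the level of several members. In 5 of the 8 (Slc12a2, Ano3, Clcn3, Clcn6 and Lrrc8a) the deeper library had the highest CPM in both groups, which was so for 19.0% of all genes tested. None of the 8 had its lowest CPM in the deeper library of both groups, against 21.0% of all genes. The part of depth in these levels was not tested. Each group held 1 deeper library.

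**Figure D4:**
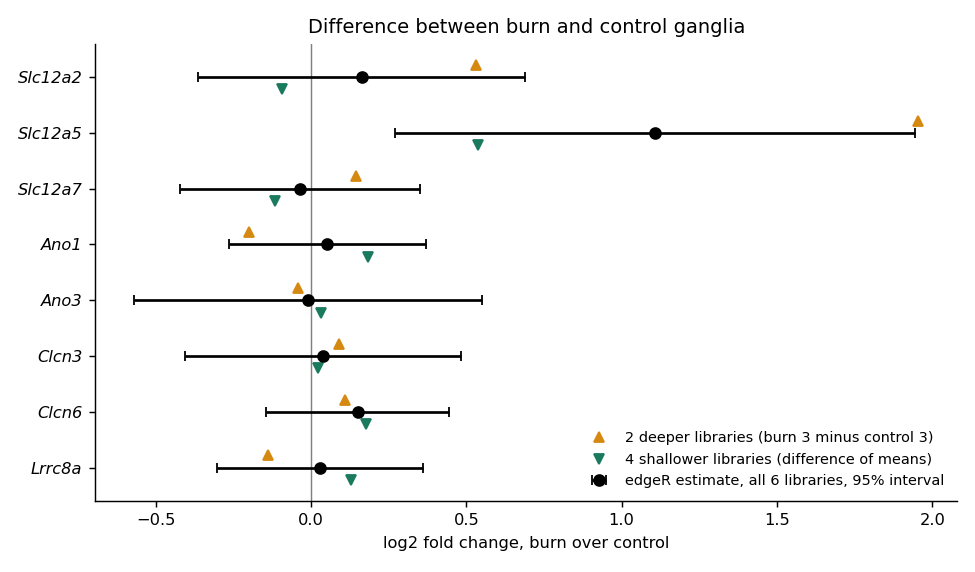
Log2 fold change, burn over control, of the 8 genes: black points are edgeR estimates over 6 libraries with 95% intervals, orange triangles the deeper pair, and green triangles the 4 shallower libraries. The interval of Slc12a5 runs from 0.27 to 1.95 and lies above 0 before adjustment, while those of the other genes include 0, and Slc12a2, Slc12a7, Ano1, Ano3 and Lrrc8a have opposite signs in the deeper pair and the shallower libraries.

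The annotation places Slc12a2 on chromosome 18 at 57878678 to 57946821, Slc12a7 on chromosome 13 at 73733094 to 73816754, Ano1 on chromosome 7 at 144588549 to 144751974 and Ano3 on chromosome 2 at 110655201 to 110950923. Clcn3 lies on chromosome 8 at 60910389 to 60983300, Clcn6 on chromosome 4 at 148004259 to 148038821 and Lrrc8a on chromosome 2 at 30237715 to 30263790, all in GRCm38 and all protein-coding. Exons of Ano3 share 61 bases with Muc15 on the other strand, and exons of Lrrc8a share 91 bases with 1700084E18Rik on the other strand. Lrrc8a also shares 2853 of its 4308 exon bases with Gm28035, annotated on the same strand. Gm28035 was not among the gene symbols counted, so no reads were assigned to a gene of that symbol. The effect of this overlap on the level of Lrrc8a per kilobase, and so on its share of the LRRC8 subunits and its place in the order of levels, was not tested. How strand was handled in the counting is not stated. Muc15 had from 1 to 15 reads per library and 1700084E18Rik from 1 to 10, against at least 4896 for Ano3 and 421 for Lrrc8a.

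Other genes of chloride transport were read from the same fit. Of 49 genes on 7 lists 42 were tested, 0 were called in either direction by edgeR, DESeq2 or limma-voom, and their median log2 fold change was 0.0048, with 21 positive and 21 negative signs. At an unadjusted p under 0.05, 1 was higher and 1 was lower, against 2.04% and 0.924% of all genes, and the groups did not overlap in 3 higher and 1 lower gene (Best1, Slc4a8 and Wnk2 higher, Ano2 lower), against 4.33% and 2.91%. Among the untested genes, Ano7, Ano9, Bsnd, Cftr and Best2 had at most 19 reads in any library.

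The lowest p of these lists belonged to Slc4a8, a sodium-driven chloride-bicarbonate exchanger of neurons that carries chloride outward. It had 27.1, 27.5 and 31.6 CPM in burn libraries 1, 2 and 3, against 15.9, 19.1 and 19.9 CPM in control libraries 1, 2 and 3. All burn libraries lay above all controls, and the fold was 1.57 (95% interval 1.27 to 1.95, log2 fold change 0.65, SE 0.13). Its unadjusted p was 0.00128, but with adjustment across the whole table edgeR gave 0.773. The adjusted p was 0.0753 in DESeq2 and 0.0858 in edgeR with a term for depth, in a range of 0.0753 to 1 over the alternatives. On the log2 scale the deeper pair differed by 0.65 and the 4 shallower libraries by 0.64, and the fit gave 0.72 with the spinal cord covariate (unadjusted p 0.0271).

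Slc4a1, the anion exchanger of red blood cells, had 128, 91.3 and 76.0 CPM in burn libraries 1, 2 and 3, against 208, 250 and 93.2 CPM in control libraries 1, 2 and 3. The groups overlapped through control 3 (log2 fold change -0.90, SE 0.36, edgeR unadjusted p 0.0413, adjusted p 0.9998). Ano2, a calcium-activated chloride channel of olfactory neurons, had 0.618, 0.729 and 0.639 CPM in burn libraries 1, 2 and 3, against 0.792, 1.67 and 0.917 CPM in control libraries 1, 2 and 3 (log2 fold change -0.71, SE 0.34, edgeR adjusted p 0.9998). Without control 2 the log2 fold change of Ano2 was -0.38.

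The kinases that switch these cotransporters formed a list of 8, which holds the WNK kinases, their targets Stk39 (SPAK) and Oxsr1 (OSR1), and the scaffolds Cab39 and Cab39l. WNK signalling through these kinases activates Slc12a2 and inhibits the potassium-chloride cotransporters. All 8 were tested and 0 passed, with 7 positive signs, where 52.1% of all genes tested were positive. The median log2 fold change was 0.15, against 0.0080 for all genes. Wnk1 stood at 414 ± 73.5 CPM in burn ganglia and 328 ± 52.6 CPM in control ganglia (SD, n = 3 each), with a log2 fold change of 0.34 that did not pass (SE 0.18, edgeR adjusted p 0.9998).

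The medians of the other lists were 0.02 for 6 cotransporters, 0.03 for 6 anoctamins, -0.03 for 6 genes of the CLC family, 0.07 for 4 LRRC8 subunits, -0.08 for 6 other chloride channels and -0.08 for 6 anion exchangers. Ano5 and Clcn1, both known from skeletal muscle, were highest in burn 2 and control 1, the libraries with the highest sums of muscle markers. Ano5 had 9.36, 31.4 and 7.10 CPM in burn libraries 1, 2 and 3, against 36.7, 8.46 and 2.71 CPM in control libraries 1, 2 and 3. The sum of 6 skeletal muscle markers was 4966, 16810 and 3250 CPM in burn libraries 1, 2 and 3, against 19830, 6305 and 1377 CPM in control libraries 1, 2 and 3.

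**Figure D5:**
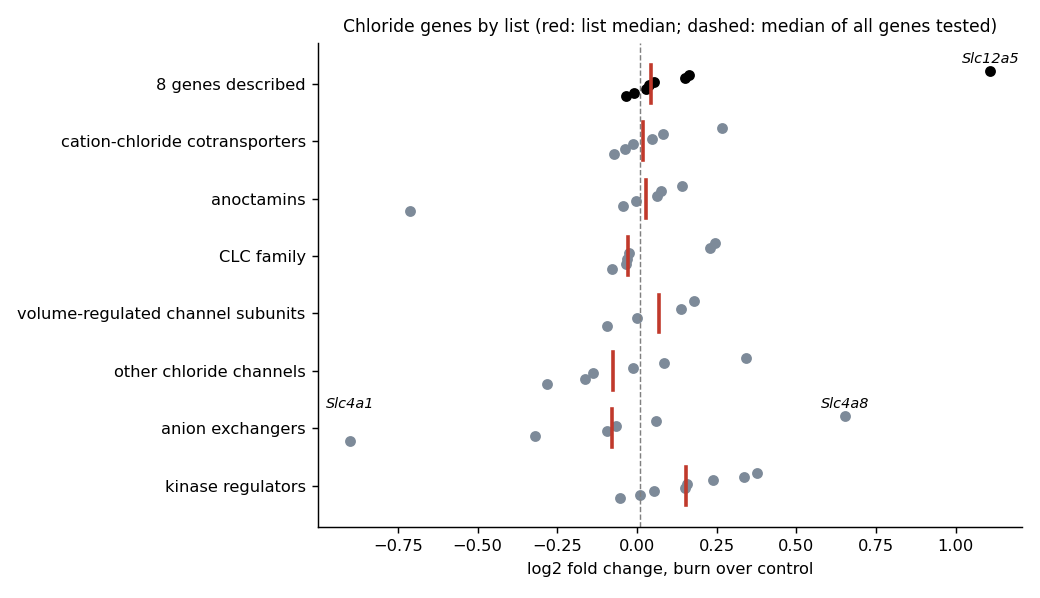
Log2 fold change, burn over control, of the 8 genes described (black) and of the 42 tested genes of 7 lists (grey), with list medians in red and the median of all genes tested, 0.0080, as a dashed line; names mark genes with an unadjusted p under 0.05. The points cluster near 0, with Slc12a5 at 1.11, Slc4a8 at 0.65, Slc4a1 at -0.90 and Ano2, unnamed in the plot, at -0.71 apart from the rest.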

How the data were processed

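For each library the authors deposited a file of unnormalised read counts per gene. The tools STAR, SAMtools and HTSeq, without versions, and the builds mm10 (GRCm38) come from the submitters' processing notes; reads were single-end of 75 nucleotides, per the series' design text. The 5 closing tally lines of each file, 49.2% to 56.2% of entries, were left out. The counts went into edgeR 4.0.16 under R 4.3.3 (filterByExpr with a minimum count of 10 and a minimum total of 15, TMM, glmQLFit with robust set, glmQLFTest, group as the only term), with Benjamini-Hochberg adjustment over 17534 genes. The standard error is the log2 fold change over the square root of F, and 95% intervals use the fit's degrees of freedom. CPM used scaled library sizes, and 0.5 was added before the log2 of depth-wise differences. DESeq2 1.42.0 and limma 3.58.1 were alternatives. All were tested on simulated data. Lengths and overlaps came from GENCODE M21. Figures were drawn with matplotlib 3.10.9.

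The members, lists and alternatives were chosen with earlier results of these data known. The named genes are the 8 members, the 3 genes of the other chloride lists with the lowest p, and the 3 genes nearest to the member with the lowest p; Best1, Wnk2, Wnk1, Ano5, Clcn1 and the family partners were named after their values were seen. Pairs of libraries within a group were farther apart than counting noise allows (chi-square of 40.5 to 189 per degree of freedom). Each library was counted as 1 replicate. The distance between libraries does not show whether they came from separate animals or a pool, since technical variation can also exceed counting noise. Some items are not reported here.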

Additional observations from a re-analysis of the deposited data

How the results depend on the processing

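In 18 alternatives none of the 8 genes and no other chloride gene was called; the values below are log2 fold changes. Over all genes the count of 4 calls became 14 with no filter, 28 in DESeq2, 38 with a depth term, 15 in the 4 shallower libraries, 0 with the spinal cord covariate in edgeR (with 140 up and 318 down at an unadjusted p under 0.05), 7 at an adjusted p under 0.1, and 1 to 6 with a library left out (1 without burn 2 or any control). The log2 fold change of Slc12a5 stayed between 0.60 and 1.96 except with the spinal cord covariate, where it was -0.202. Slc12a2 turned to -0.0832 in the 4 shallower libraries and -0.105 with the spinal cord covariate, and ranged from -0.143 (without burn 3) to 0.298 with a library left out. Slc12a7 turned to 0.146 in the deeper pair, and ranged from -0.146 to 0.125 with a library left out (positive without burn 2, burn 3 or control 2). Ano1 turned to -0.199 in the deeper pair, and ranged from -0.00926 to 0.16 (negative without burn 2 or control 1). Ano3 turned to 8.07e-05 with the stricter filter, 0.0211 in limma-voom, 0.0241 in the 4 shallower libraries and 0.24 with the spinal cord covariate, and ranged from -0.205 (without control 2) to 0.202 (positive without burn 1, burn 2, control 1 or control 3). Clcn3 ranged from -0.116 to 0.167 (negative without burn 3 or control 2), and Lrrc8a from -0.0665 to 0.175 (negative without control 1 or control 2), with -0.139 in the deeper pair. The cause of these turns was not tested. With the spinal cord covariate Ano1 stood at 0.363, Lrrc8a at 0.323 and Slc12a7 at -0.395. Clcn6 (0.06 to 0.29), Slc4a8 (0.56 to 0.73), Slc4a1 (-1.67 to -0.29) and Ano2 (-0.91 to -0.32, not tested under the stricter filter) kept their sign. The difference in the log2 ratio of Slc12a2 to Slc12a5 stayed negative, from -1.29 to -0.62 with a library left out.

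Libraries 1 and 2 carry the same numbers in both groups, and a fit with these numbers as a replicate block, over 4 libraries, called 4 genes and none of the 8. Under this block Slc12a2 stood at -0.0808, Ano3 at 0.0459 and Slc12a5 at 0.60. Same-numbered libraries did not deviate together (correlations of -0.0903 and -0.0551). The cross-numbered correlations were 0.438 for burn 1 with control 2 and 0.382 for burn 2 with control 1. For the deeper pair, burn 3, which carries no number in its title, and control 3, the correlation was 0.444. With so few libraries in each group, these correlations cannot decide whether the number marks a pairing.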
